A study of Homo sapiens with 9 samples.

Results

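The HOX genes of the HOXA, HOXB, HOXC and HOXD clusters were followed on exon arrays of a human embryonic kidney cell line. They were taken as all probe sets that the platform annotation ties to exactly 1 gene symbol made of HOX, a cluster letter and a number. This gave 36 genes and 337 probe sets (short groups of probes, mostly 1 per exon or part of an exon), of 19426 genes and 1384231 probe sets in all. HOXA held 10 of the genes, HOXB 10, HOXC 7 and HOXD 9, with 4 to 18 probe sets each, and a gene's level was the median of its probe sets on the log2 scale. The rule uses names only, though it was drawn up with earlier results of these data known.

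The cells were Flip-In-293, a derivative of the HEK293 line that carries an integration site for expression vectors. All 3 groups were infected with a lentivirus that expressed a short hairpin RNA and were kept in culture for 10 days before RNA was taken, with 3 arrays per group. The hairpins were labelled as CPSF3 knockdown, RBFOX2 knockdown and a non-silencing control, so the control cells carried the virus too; the first group is called the CPSF3-labelled arrays here. CPSF3 encodes the endonuclease that cuts pre-mRNA at the poly(A) site, and RBFOX2 encodes an RNA-binding splicing regulator. The 3 arrays of a group are biological replicates by their titles and technical ones by the series description, so each p-value covers array-to-array spread and may hold no spread between cultures.

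HOX genes encode homeodomain transcription factors that give body segments their identity along the head to tail axis. They lie in 4 clusters on separate chromosomes (7, 17, 12 and 2 for HOXA, HOXB, HOXC and HOXD), and low position numbers mark the genes used at the head end and high numbers those used at the tail end. The proteins bind DNA together with TALE class homeodomain partners of the PBX and MEIS families. Polycomb proteins silence the clusters, Trithorax and MLL proteins keep them active, CTCF and cohesin divide them into domains, and retinoic acid switches on the genes of low position number. The kidney uses genes of position 11 in its early development.

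To show the DNA in front of the genes that the comparisons turn on, the 100 bases before the annotated start of HOXA3, HOXA7, HOXA2 and HOXD4 are given 5′ to 3′ on the gene's strand. They come from RefSeq on GRCh38.p14, which is not the build of the array processing (hg18). Capitals mark CCAAT on either strand. HOXA3 has 7 annotated starts, and the first and the last are shown. HOXC9 and HOXB9 are named only.
HOXA3, first start, chr7:27152584-27152683, minus strand: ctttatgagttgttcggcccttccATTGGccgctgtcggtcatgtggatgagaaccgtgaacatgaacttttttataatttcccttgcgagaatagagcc
HOXA3, last start, chr7:27113843-27113942, minus strand: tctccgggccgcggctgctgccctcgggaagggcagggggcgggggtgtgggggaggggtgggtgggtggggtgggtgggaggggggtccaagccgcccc
HOXA7, chr7:27156676-27156775, minus strand: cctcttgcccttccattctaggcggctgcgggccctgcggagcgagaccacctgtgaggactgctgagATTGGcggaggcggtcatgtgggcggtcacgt
HOXA2, chr7:27102684-27102783, minus strand: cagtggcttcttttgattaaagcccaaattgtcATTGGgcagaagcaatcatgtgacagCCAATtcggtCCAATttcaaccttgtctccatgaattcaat
HOXD4, chr2:176151450-176151549, plus strand: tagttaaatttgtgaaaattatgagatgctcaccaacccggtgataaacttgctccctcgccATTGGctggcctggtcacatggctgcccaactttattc

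Windows of this kind were at hand for 19 of the 36 genes, 26 windows in all. In the 250 bases before the start, CCAAT occurred on either strand in 65.4% of the HOX windows, against 32.0% of all 35116 windows. CACGTG, a core that basic helix-loop-helix proteins bind, occurred in 30.8% of the HOX windows and 6.34% of all. This motif contains the letters CG, of which the HOX windows held a median of 19.5, against 11 over all windows. The part of CG content in the share of CACGTG was not tested. TATAAA occurred in 19.2% and 10.7%, and TGATTNAT, a form of the joint PBX and HOX site, in 7.69% and 2.48%. Matches of different motifs may overlap, the 7 windows of HOXA3 were counted separately, and a match describes the letters, not binding.

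Before the HOX values are read, 3 features of the arrays bear on them. Neither targeted gene was called on the arrays that carry its label. CPSF3 stood at a log2 level of 9.28 ± 0.25 on the CPSF3-labelled arrays, against 9.42 ± 0.30 on the control arrays (SD, n = 3 each). These groups overlapped, and the difference of -0.14 ± 0.17 (SE) had an adjusted p of 0.686 in limma. RBFOX2 stood at 8.61 ± 0.03 on the RBFOX2 hairpin arrays, against 9.19 ± 0.07 on the control arrays, with no overlap, a difference of -0.58 ± 0.12 and an adjusted p of 0.148. The third feature lay in the controls: the HOX genes' median deviation from their means over all arrays was 0.22, 0.07 and -0.02 on the CPSF3-labelled arrays and 0.07, -0.01 and 0.05 on the RBFOX2 hairpin arrays, against -0.13, -0.12 and 0.05 on the control arrays. Control array 3 thus lay with the hairpin arrays for these genes, and the same medians over all genes lay between -0.05 and 0.04. All 11 measured genes of the HEK293 list reached a level of 6.97, which is the median over all probe set means. Of these 11, 1 was called higher and 4 lower on the CPSF3-labelled arrays, where 9.2% of all genes were called. ENO2 had the smallest p there, with -1.31 ± 0.15 (SE, limma adjusted p 0.00271). None of the 11 was called on the RBFOX2 hairpin arrays. The mean level of that list ran over 9.24 to 9.35 on the CPSF3-labelled arrays, 9.37 to 9.48 on the RBFOX2 hairpin arrays and 9.50 to 9.66 on the control arrays. Its part in the HOX differences was not tested. Markers of other cells were at or above that median for 5 of 8 fibroblast, 3 of 5 blood and 2 of 5 endothelial genes. The fibroblast list ran between 4.73 for FAP and 8.99 for COL1A1, the blood list between 4.60 for PTPRC and 7.97 for SPI1, and the endothelial list between 5.47 for TEK and 7.34 for VWF. The mean level of the blood list was 6.53 to 6.64, 6.70 to 6.71 and 6.40 to 6.59 on CPSF3-labelled arrays, RBFOX2 hairpin and control.

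The HOX levels were set against the median of all probe set means. That median is not a background level, since markers of other cells reached it too, so passing it does not show expression. Of the 36 genes, 35 had a level at or above 6.97 and 25 at or above 8.36, the upper quartile of all probe set means; among all 18589 genes tested the numbers were 14837 and 8943. At the probe set scale 91.7% of the HOX probe sets were at or above 6.97, against 75.2% of all probe sets tied to 1 gene. The share was 96.1% for HOXA, 88.5% for HOXB, 87.8% for HOXC and 92.2% for HOXD. The median level was 8.71 over the HOX genes and 8.30 over all genes. Probes differ in how strongly they bind, so the order of levels between genes describes these arrays and is not an order of RNA amounts.

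**Figure D1:**
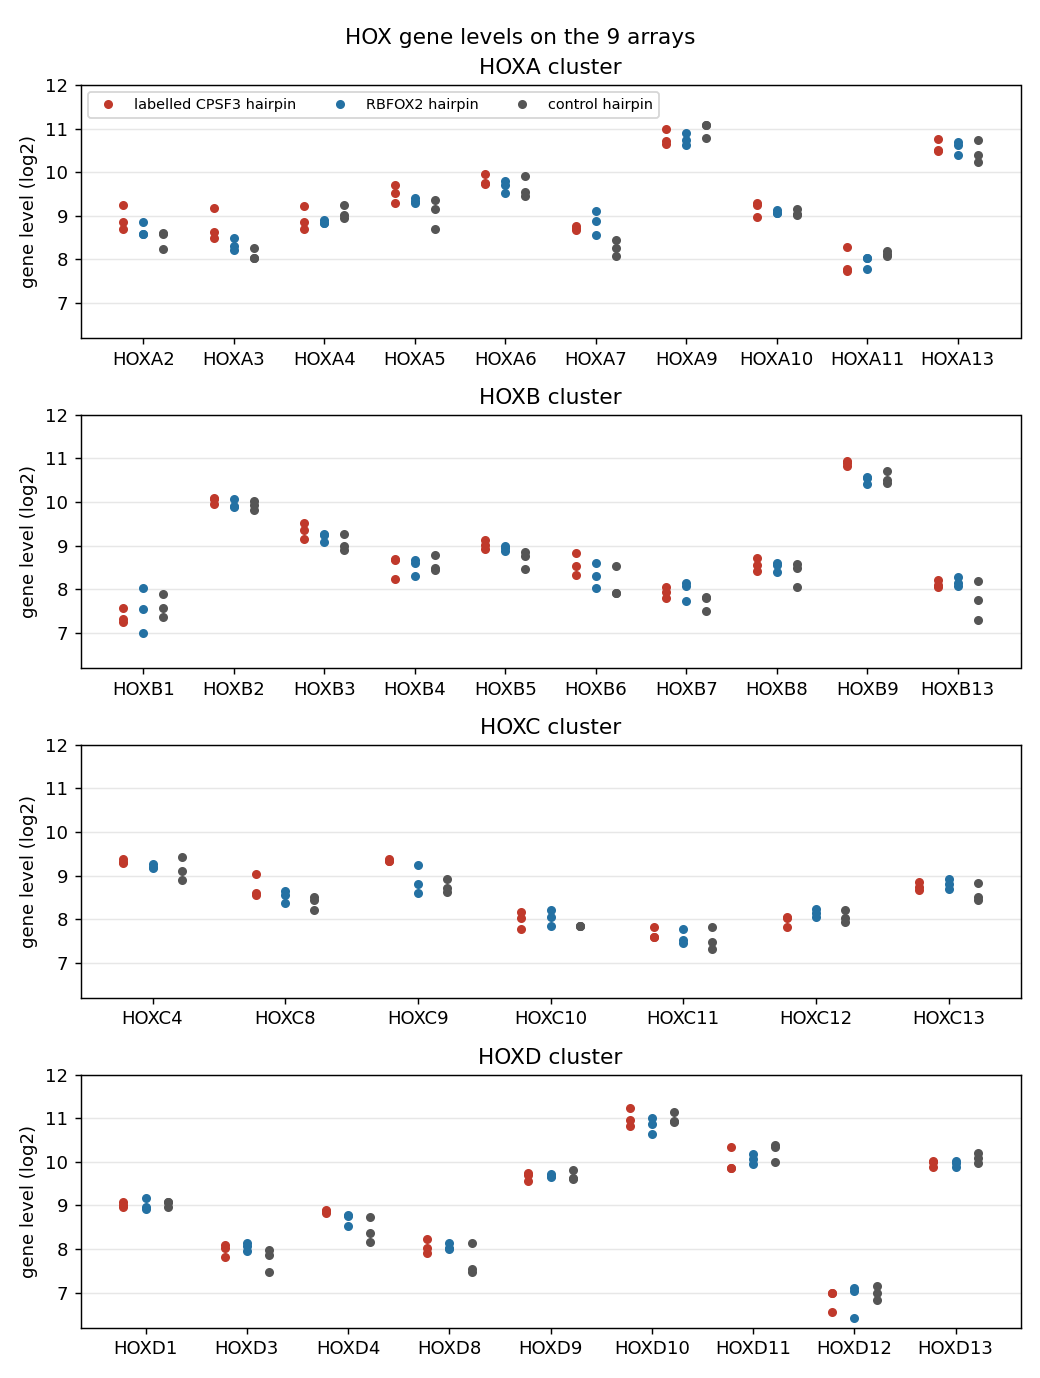
Gene level (log2) of the 36 HOX genes on each of the 9 arrays, one panel per cluster with genes by position number; each point is 1 array, with CPSF3-labelled arrays in red, RBFOX2 hairpin arrays in blue and control arrays in grey. Mean levels run between 6.90 for HOXD12 and 10.95 for HOXD10, and for most genes the groups overlap.

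HOXA9 had the top level of its cluster, at 10.84 over 9 arrays, HOXB9 that of HOXB at 10.65, HOXC4 that of HOXC at 9.23 and HOXD10 that of HOXD at 10.95. HOXA9, which is a well known driver of blood stem cell growth, measured 11.00, 10.71 and 10.65 on the CPSF3-labelled arrays, 10.63, 10.74 and 10.89 on the RBFOX2 hairpin arrays, and 11.09, 11.08 and 10.78 on the control arrays. HOXD10, which takes part in limb and motor neuron patterning, measured 11.23, 10.83 and 10.96 on the CPSF3-labelled arrays, 10.64, 11.02 and 10.86 on the RBFOX2 hairpin arrays, and 11.15, 10.92 and 10.95 on the control arrays. The groups overlapped for both genes. HOXC4 measured 9.37, 9.29 and 9.31 on the CPSF3-labelled arrays, 9.17, 9.20 and 9.27 on the RBFOX2 hairpin arrays, and 9.11, 8.90 and 9.42 on the control arrays, where array 3 was above every other array. The level of HOXD12, 6.90, was the lowest of the 36 and the only one under 6.97.

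Level and position number had a Pearson r of 0.08 and a Spearman rho of 0.05 over the 36 genes, which share arrays but not probes. Within clusters r was 0.40 for HOXA (10 genes), -0.02 for HOXB (10), -0.59 for HOXC (7) and 0.25 for HOXD (9). The median level was 8.70 at positions 1 to 3 (7 genes), 8.61 at positions 4 to 8 (13 genes) and 9.05 at positions 9 to 13 (16 genes). The 6 genes above 10 were HOXA9, HOXA13, HOXB9, HOXD10, HOXD11 and HOXD13, all of the last class. These position classes were drawn after the values had been seen, and no test was made on them. HOXA11 and HOXD11, paralogues needed together for the mouse kidney, stood at 8.01 and 10.11. Across the 9 arrays a gene's level spread over 0.25 for HOXD1, the narrowest, and 1.16 for HOXA3, the widest. Single probe sets spread far more than genes, with means between 2.82 for 1 of HOXC9 and 14.07 for 1 of HOXC12.

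The first question was how the HOX genes differed between the CPSF3-labelled arrays and the control arrays. HOXC9 and HOXA3 were higher on the CPSF3-labelled arrays, by 1.52-fold and 1.58-fold at an adjusted p under 0.05 (limma). None of the 11 HOX genes with a negative difference was called. HOXC9 is known for its part in thoracic patterning and in motor neuron identity, and HOXA3 for its part in the thymus, parathyroid and hindbrain. These 2 of 36 genes are 5.56%, while 9.2% of all 18589 genes were called in this comparison, so the HOX share was not above the background. By direction, 6.36% of all genes were called higher and 2.84% lower on the CPSF3-labelled arrays. At an unadjusted p under 0.05 there were 9 HOX genes, which is 25% against 24.5% of all genes. A gene that was not called is not shown to be unchanged.

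HOXC9 measured 9.34, 9.34 and 9.38 on the CPSF3-labelled arrays, 8.61, 8.80 and 9.24 on the RBFOX2 hairpin arrays, and 8.71, 8.61 and 8.92 on the control arrays. Every array labelled CPSF3 knockdown was above every other array, and RBFOX2 hairpin array 3 came nearest. The difference from control was 0.61 ± 0.16 (SE; 95% interval 0.27 to 0.95), with an adjusted p of 0.0328 (limma, Benjamini-Hochberg over all genes). Leaving out 1 array ended this call for CPSF3-labelled arrays 1, 2 or 3 and control arrays 1 or 2, with differences of 0.54 to 0.61 and adjusted p of 0.0840 to 0.114. With the mean as gene level the difference was 0.38 (adjusted p 0.0287).

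HOXA3 measured 9.19, 8.50 and 8.63 on the CPSF3-labelled arrays, 8.49, 8.22 and 8.31 on the RBFOX2 hairpin arrays, and 8.27, 8.04 and 8.04 on the control arrays. Array 1 of the first group stood well above its partners, and all 3 were above the control arrays. The difference was 0.66 ± 0.17 (SE; 95% interval 0.29 to 1.03), with an adjusted p of 0.0335 in limma. It was 0.45 without CPSF3-labelled array 1 (adjusted p 0.115) and 0.62 without control array 2 (adjusted p 0.106), and the call also ended without CPSF3-labelled array 3, control array 1 or control array 3, with adjusted p of 0.0599, 0.0692 and 0.0509. With only probe sets above the upper quartile the difference was 0.14 (adjusted p 0.452), with those above the median 0.43 (adjusted p 0.0383) and with the mean as gene level 0.38 (adjusted p 0.0464).

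**Figure D2:**
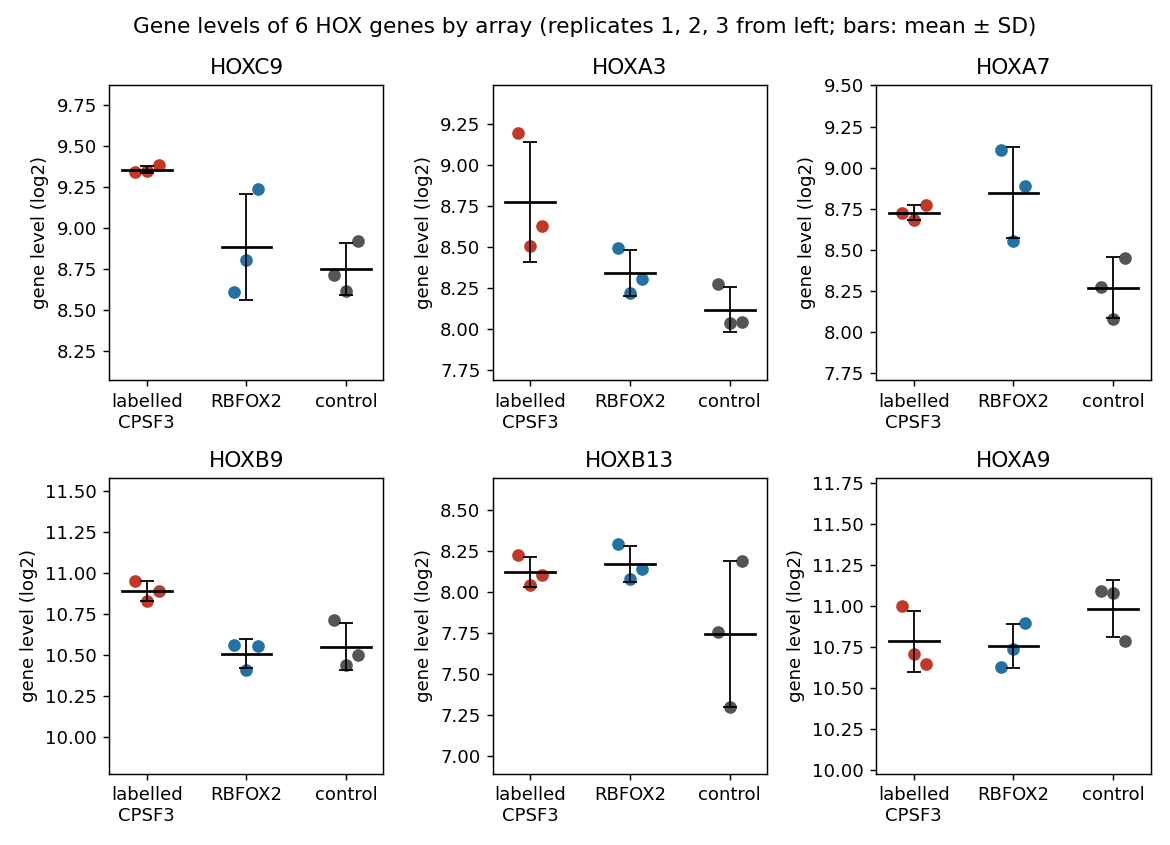
Log2 level of 6 HOX genes on each array, with the group mean and SD as bars; the CPSF3-labelled, RBFOX2 hairpin and control arrays stand from left to right. HOXC9 shows the CPSF3-labelled arrays at 9.34 to 9.38, above the 8.61 to 8.92 of control, while HOXB13 shows control arrays spread over 7.30 to 8.18.

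The other 7 genes with an unadjusted p under 0.05 had positive differences too and did not pass the adjustment. HOXD4, a hindbrain gene, measured 8.89, 8.82 and 8.87 on the CPSF3-labelled arrays and 8.17, 8.36 and 8.72 on the control arrays, a difference of 0.44 ± 0.15 (SE, limma adjusted p 0.0775). HOXA7 differed by 0.46 ± 0.15 (adjusted p 0.0797), HOXB9 by 0.34 ± 0.12 (adjusted p 0.0942) and HOXA2, the gene of the second pharyngeal arch, by 0.47 ± 0.16 (adjusted p 0.0943). HOXA5, HOXB5 and HOXC8 differed by 0.44, 0.33 and 0.35, with adjusted p of 0.121, 0.129 and 0.174 in the same fit. The 3 CPSF3-labelled arrays were all above the 3 control arrays for 8 HOX genes, or 22.2% against 28.8% of all genes, and for none were they all below. Over all genes 16.6% stood apart in the upward direction and 12.3% in the downward direction.

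The differences leaned upward across the list, with 25 genes positive and 11 negative, or 69.4% positive against 51.3% of all genes. The median difference was 0.17 against 0.01 over all genes, and the range ran between -0.23 for HOXB1 and 0.66 for HOXA3. In size the HOX differences were much like others, with a median of 0.20 regardless of sign against 0.17 over all genes. By cluster the median was 0.15 for HOXA, 0.25 for HOXB, 0.16 for HOXC and -0.01 for HOXD. Among all genes with levels of 8 to 9 the median difference was 0.02, against 0.35 for the 15 HOX genes in that range. At levels of 7 to 8 it was -0.01, against 0.17 for 6 HOX genes. At 9 to 10 it was 0.08, against 0.14 for 8 HOX genes. At levels of 10 and above it was 0.06, against -0.06 for 6 HOX genes. Below 7 it was -0.04, against -0.15 for 1 HOX gene. No test was made on these ranges.

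**Figure D3:**
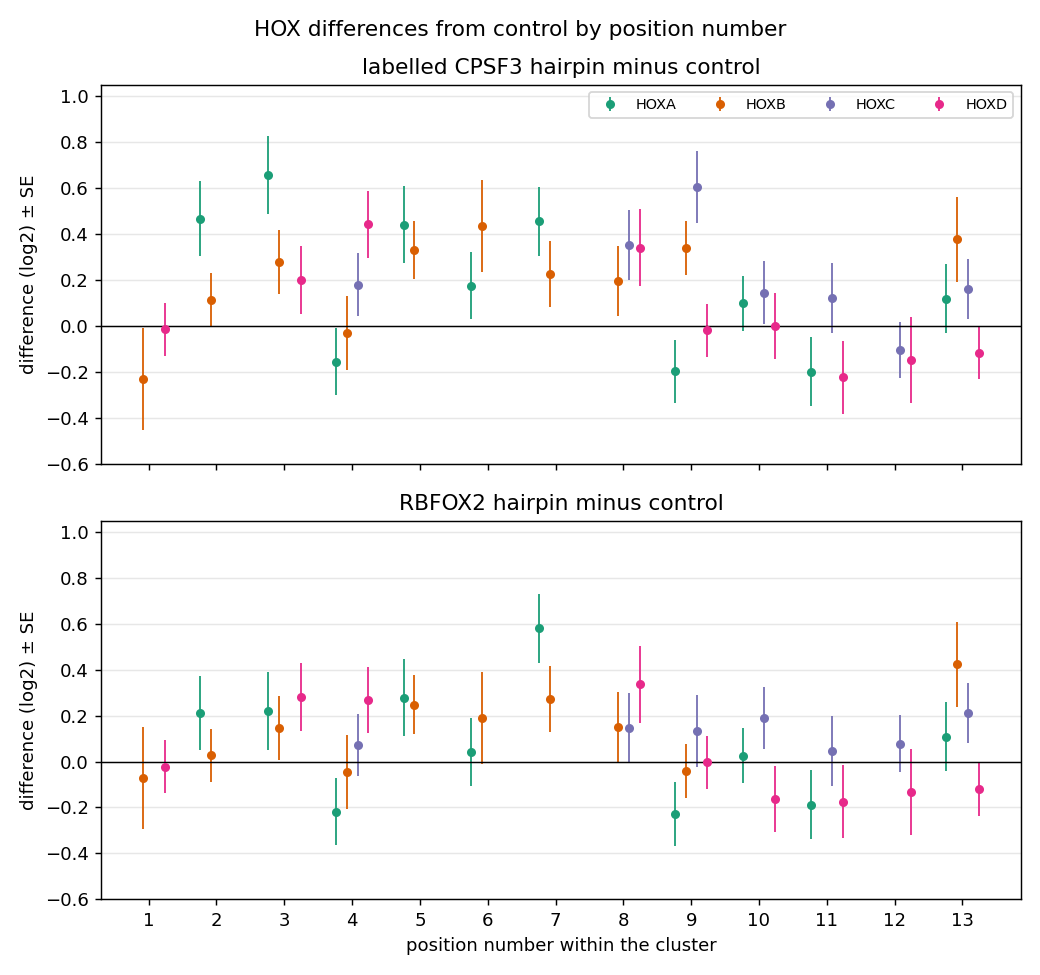
Difference from control (log2, ± SE of the fit) of the 36 HOX genes against position number, coloured by cluster, for the CPSF3-labelled arrays in the upper panel and the RBFOX2 hairpin arrays in the lower. HOXA3 at 0.66 and HOXC9 at 0.61 are the highest points above, HOXA7 at 0.58 is the highest below, and the HOXD genes of positions 9 to 13 lie at about 0 or below in both.

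The positive differences lay mostly at low and middle positions. At positions 4 to 8 the difference was positive for 11 of 13 genes with a median of 0.33, at positions 1 to 3 for 5 of 7 with a median of 0.20, and at positions 9 to 13 for 9 of 16 with a median of 0.05. Within positions 9 to 13 the HOXD genes ran between -0.22 and 0.00084. The genes of the other clusters in that class ran between -0.20 for HOXA11 and 0.61 for HOXC9. All 6 genes with levels above 10 lie in that class too, so position, cluster and level were not separated. The classes were drawn after the values had been seen, so this is a description with no test. For the middle class the control arrays themselves lay apart, with median deviations of -0.35, -0.26 and 0.07. Its median was 0.42 without control array 3 and 0.21 without control array 1. Without CPSF3-labelled array 1 it was 0.22. At positions 1 to 3 the median was 0.31 without control array 3 and 0.14 without CPSF3-labelled array 1. At positions 9 to 13 it was -0.01, with 8 of 16 genes positive, without control array 2, 0.09 without CPSF3-labelled array 3 and 0.03 without control array 3.

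**Figure D4:**
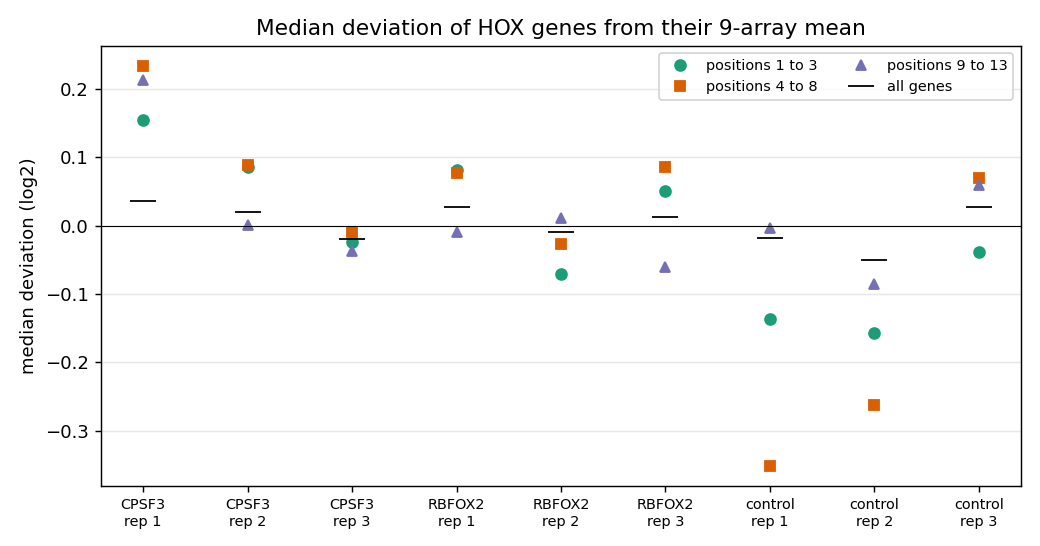
Median deviation of the HOX genes of each position class from their own mean over 9 arrays (log2), 1 column per array, with the median over all genes as a dash. The genes of positions 4 to 8 stood at -0.35 and -0.26 on control arrays 1 and 2 and at 0.07 on control array 3, and all 3 classes were highest on CPSF3-labelled array 1.

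CPSF3-labelled array 1 carried the highest value for 15 of the 36 HOX genes, against 24.9% of all genes. Control arrays 1 and 2 carried the lowest value for 9 and 10 of the 36 HOX genes, against 10.5% and 25.1% of all genes. For control array 2 the HOX share was thus close to that of all genes. The median HOX difference was 0.28 without control array 3, 0.10 without control array 2 and 0.11 without CPSF3-labelled array 1, against 0.17 with all arrays, and 0.12 to 0.20 without any of the others. It was above 0 in each of these fits. Those without an RBFOX2 hairpin array could not move it, since these arrays do not enter this difference.

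Single probe sets carried the gene calls unevenly. In HOXC9, 4 of the 6 probe sets differed at an unadjusted p under 0.05, by 0.37 to 0.72, and the others by 0.02 and -0.03, the second of which was the dim one at 2.82. In HOXA3, 10 of 15 probe sets had positive differences, over a range of -0.18 to 1.27, with 4 at an unadjusted p under 0.05. HOXB6 had all 9 of its probe sets positive and HOXB5 all 7, with 6 and 5 of them at an unadjusted p under 0.05. At the probe set scale 4 of the 337 were called, or 1.19%, against 1.95% of all 354600. They lay in HOXA10 (1.21 ± 0.25, adjusted p 0.0454), HOXB5 (1.14, adjusted p 0.0474), HOXC9 (0.72 ± 0.16, adjusted p 0.0488) and HOXA3 (1.15 ± 0.25, adjusted p 0.0498), all higher on the CPSF3-labelled arrays in limma. At an unadjusted p under 0.05 there were 63, or 18.7% against 19.2%, and 65 stood apart from control, or 19.3% against 24.6%.

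**Figure D5:**
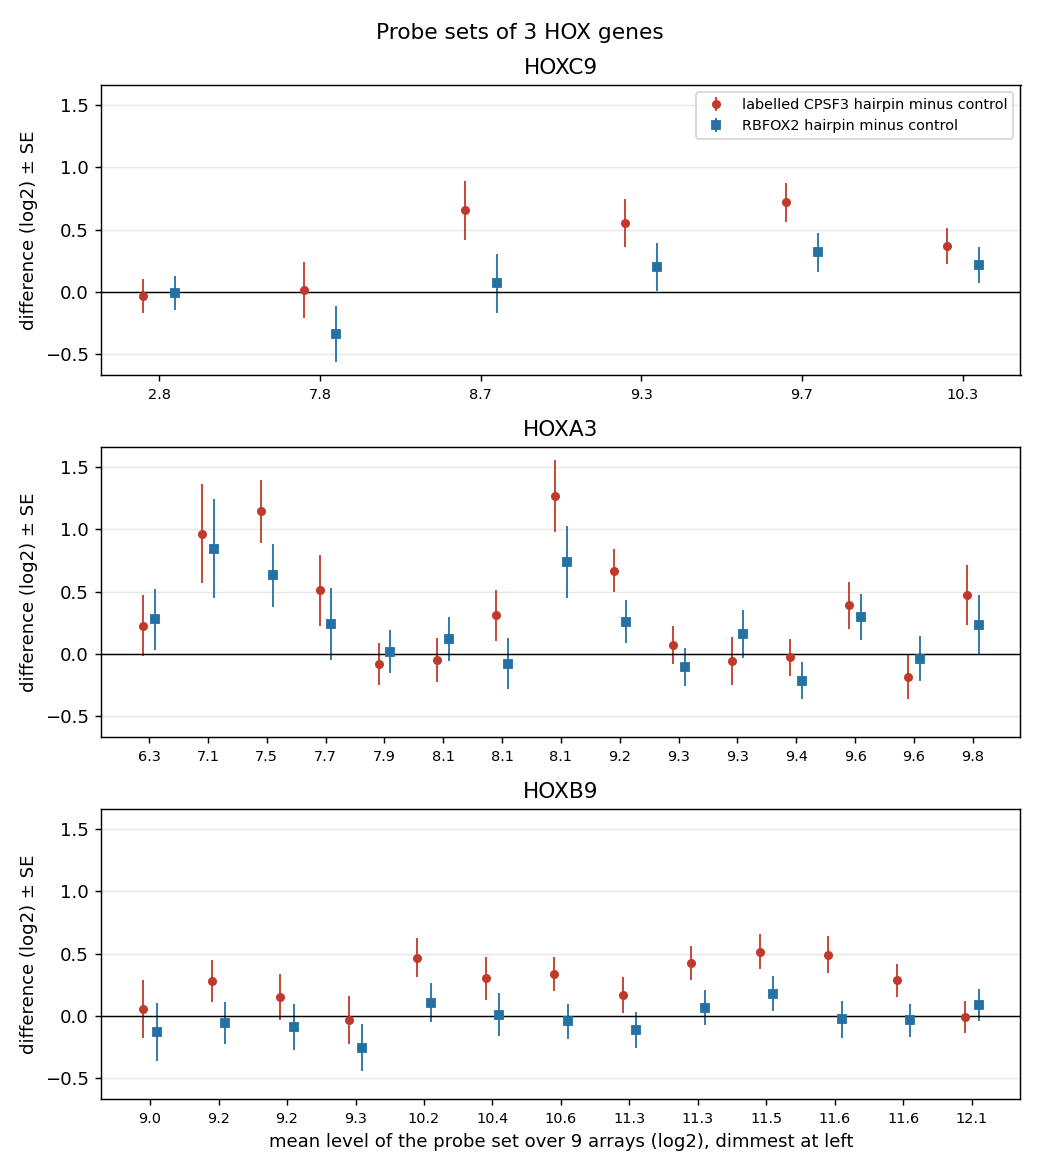
Difference from control (log2, ± SE) of each probe set of HOXC9, HOXA3 and HOXB9, ordered by mean level with the dimmest at the left, for the CPSF3-labelled arrays and the RBFOX2 hairpin arrays. HOXC9 has 4 of 6 probe sets between 0.37 and 0.72, and HOXA3 mixes probe sets near 0 with others up to 1.27.

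A probe set's signal relative to its own gene, a measure of exon use, was examined for the 333 HOX probe sets in 35 genes with at least 5 probe sets. This measure was added after the data had been seen. None was called in any comparison, and none was called among all 349600 such probe sets either. At an unadjusted p under 0.05 there were 37 (11.1% against 11.2% of all) on the CPSF3-labelled arrays, 15 (4.5% against 7.43%) on the RBFOX2 hairpin arrays, both against control, and 18 (5.41% against 4.16%) between the hairpins. The smallest adjusted p was that of 1 probe set of HOXA3, with -0.71 ± 0.12 (SE, limma adjusted p 0.132).

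The comparison of RBFOX2 hairpin with control asks how the same genes differed between those arrays. None of the 36 HOX genes was called by limma, where 7 of 18589 genes, or 0.0377%, were called (0.0108% higher and 0.0269% lower). At an unadjusted p under 0.05 there were 2, which is 5.56% against 12.1% of all genes. HOXA7, a gene of thoracic patterning, measured 9.10, 8.55 and 8.89 on the RBFOX2 hairpin arrays and 8.27, 8.08 and 8.45 on the control arrays. These groups did not overlap, and the difference was 0.58 ± 0.15 (SE, adjusted p 0.206). On the CPSF3-labelled arrays HOXA7 measured 8.72, 8.68 and 8.77. HOXB13, a gene of the prostate and the tail end, measured 8.29, 8.08 and 8.14 on the RBFOX2 hairpin arrays and 7.75, 7.30 and 8.18 on the control arrays, a difference of 0.42 ± 0.18 (SE, limma adjusted p 0.383). Control array 3 overlapped the hairpin arrays there, and on the CPSF3-labelled arrays HOXB13 measured 8.22, 8.04 and 8.10. Without control array 3, HOXA7, HOXB13 and HOXD8 were called, 8.33% against 5.83% of all genes in that fit.

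The groups stood apart for 4 HOX genes, 2 higher and 2 lower, or 11.1% against 13.6% of all genes (6.98% higher and 6.6% lower). The differences were positive for 24 genes and negative for 12, 66.7% positive against 55.5%, with a median of 0.09 against 0.02 over all genes and a range of -0.23 for HOXA9 to 0.58 for HOXA7. By cluster the median was 0.08 for HOXA, 0.15 for HOXB, 0.13 for HOXC and -0.02 for HOXD, and all 7 HOXC genes were positive, at 0.05 to 0.21. By position class it was 0.15, 0.19 and 0.01, and for positions 4 to 8 it was 0.08 without control array 1 and 0.32 without control array 3. For positions 1 to 3 it was 0.07 and for positions 9 to 13 -0.02 without control array 2, and the last was -0.02 without RBFOX2 hairpin array 1. Over all 36 genes the median was 0.041 without control array 2 and 0.19 without control array 3. Both hairpin comparisons use the same 3 control arrays. No HOX probe set was called, and 15 (4.45% against 9.52% of all) had an unadjusted p under 0.05, while 34 (10.1% against 12%) stood apart.

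The hairpins were also set against each other, which leaves the control arrays out of the difference. None of the 36 HOX genes was called by limma, against 18 genes, or 0.0968%, of all (0.0161% higher and 0.0807% lower on the CPSF3-labelled arrays). HOXB9, HOXC9 and HOXA3 had an unadjusted p under 0.05, which is 8.33% against 11.0% of all genes. HOXB9, a thoracic gene, measured 10.95, 10.83 and 10.89 on the CPSF3-labelled arrays, 10.56, 10.41 and 10.55 on the RBFOX2 hairpin arrays, and 10.71, 10.44 and 10.50 on the control arrays. The CPSF3-labelled arrays lay above all others, by 0.38 ± 0.12 over the RBFOX2 hairpin (SE, adjusted p 0.304). HOXC9 differed by 0.47 ± 0.16 (adjusted p 0.324) and HOXA3 by 0.44 ± 0.17 (adjusted p 0.377) in the same fit. The groups did not overlap for 6 genes, 16.7% against 18.5% of all, of which 5 were higher on the CPSF3-labelled arrays and HOXC12 was lower. Over all genes 9.79% stood apart upward and 8.73% downward. No probe set was called; 23 of the 337 had an unadjusted p under 0.05 (6.82% against 7.48% of all) and 45 did not overlap (13.4% against 14.4%). The median difference was 0.04 over the 36 genes, against -0.00021 over all genes. It was 0.0050 with 18 of 36 genes positive without CPSF3-labelled array 1, 0.10 with 28 positive without CPSF3-labelled array 3, and 0.06 without CPSF3-labelled array 2 or RBFOX2 hairpin array 1.

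Genes that act on or with the HOX genes were read from 8 lists, 113 tested genes in all. On the CPSF3-labelled arrays 10 were higher and 5 lower than control, 8.85% and 4.42% against the 6.36% and 2.84% of all genes. No list member was called in the comparison of RBFOX2 hairpin with control, where 13 had an unadjusted p under 0.05, or 11.5% against 12.1% of all genes. Among the 8 tested TALE cofactors, MEIS2 rose by 0.79 ± 0.19 (limma adjusted p 0.0265) and PBX3 by 0.52 ± 0.15 (adjusted p 0.0448), and the median of the list was 0.07. Both calls ended without any 1 CPSF3-labelled array or without control array 1 or 2, with differences down to 0.66 and 0.42, and that of PBX3 also without RBFOX2 hairpin array 2. From probe sets above the upper quartile MEIS2 differed by 0.49 (adjusted p 0.0114), and PBX3, by 0.42, was not called (adjusted p 0.0640). PBX3 measured 9.25, 9.25 and 9.26 on the CPSF3-labelled arrays and 8.52, 8.72 and 8.95 on the control arrays, with no overlap. PKNOX1 had the smallest p of the list on the RBFOX2 hairpin arrays, with 0.31 ± 0.16 over control (adjusted p 0.466).

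Of 24 Polycomb genes, SUZ12, a core subunit of the complex that methylates histone H3, rose by 0.65 ± 0.15 (adjusted p 0.0220). CBX6, a reader of that mark, rose by 0.52 ± 0.15 (adjusted p 0.0469), and RBBP7, a histone-binding subunit shared with other complexes, fell by 0.69 ± 0.14 (adjusted p 0.0141), all against control in limma. The calls of SUZ12 and CBX6 ended without any 1 CPSF3-labelled array or control array 1 or 2, CBX6 also without any 1 RBFOX2 hairpin array, and that of RBBP7 without CPSF3-labelled array 1 or control array 2. The median of the list was 0.06. EZH2, the methyltransferase itself, differed by -0.47 ± 0.13 on the RBFOX2 hairpin arrays (adjusted p 0.232). Of 13 Trithorax and MLL genes, MLLT3 alone was called, 0.77 ± 0.20 higher on the CPSF3-labelled arrays (adjusted p 0.0331; not called without CPSF3-labelled array 1 or 3 or control array 1 or 2; 0.43 with the mean as gene level), and its difference on the RBFOX2 hairpin arrays was 0.42 ± 0.20 (adjusted p 0.431).

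CTCF and cohesin genes had the largest median of the 8 lists on the CPSF3-labelled arrays, 0.54 over 10 genes against 0.01 over all genes, with 5 called, all higher. WAPL, which releases cohesin from DNA, rose by 0.83 ± 0.15 (adjusted p 0.00913) and STAG1, a cohesin subunit, by 0.82 (limma). PDS5A and PDS5B, which regulate cohesin, rose by 0.61 and 0.60. The fifth was CTCF itself, named here after its values were seen, with 0.78 ± 0.15 (limma adjusted p 0.0119). When 1 array was left out, WAPL was called in all 9 fits (0.69 to 0.99), CTCF in all but that without CPSF3-labelled array 1 (0.64), and the other 3 lost the call without CPSF3-labelled array 1 or 2 or control array 1 or 2. PDS5A and PDS5B also lost it without CPSF3-labelled array 3, and PDS5B without RBFOX2 hairpin array 2 or 3. From probe sets above the upper quartile WAPL differed by 0.49 (adjusted p 0.0246) and STAG1 by 0.54 (adjusted p 0.0158). WAPL differed by 0.51 ± 0.15 on the RBFOX2 hairpin arrays (adjusted p 0.236).

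Of 16 retinoic acid pathway genes 3 were called, all lower on the CPSF3-labelled arrays, and the median of the list was -0.19. CRABP2, which carries retinoic acid to the nucleus, fell by 1.33 ± 0.16 (adjusted p 0.00271), and CRABP1, its cytoplasmic relative, by 0.61 ± 0.12 (adjusted p 0.0125) in limma. STRA6, the membrane receptor for retinol transport, fell by 0.53, with -0.065 from probe sets above the upper quartile (adjusted p 0.780), -0.31 from those above the median (adjusted p 0.159) and -0.27 with the mean as gene level (adjusted p 0.0714). CRABP2 was called in all 9 fits with 1 array left out (-1.49 to -1.16), CRABP1 in all but those without CPSF3-labelled array 1 or control array 1, and STRA6 lost its call without control array 1 or any 1 CPSF3-labelled array. CRABP2 differed by -0.65 ± 0.16 on the RBFOX2 hairpin arrays (adjusted p 0.190). CRABP1 was also lower on the CPSF3-labelled arrays than on the RBFOX2 hairpin arrays, by -0.86 ± 0.12 (limma adjusted p 0.0235), a call that ended when any 1 of these 6 arrays was left out.

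None of the 21 ParaHox and other related homeobox genes was called. EN2 had the smallest p in both comparisons with control. It differed by 0.65 ± 0.22 on the CPSF3-labelled arrays (limma adjusted p 0.0857) and by 0.69 ± 0.22 on the RBFOX2 hairpin arrays (adjusted p 0.261). The control arrays of EN2 measured 8.72, 8.72 and 9.63, and control array 3 lay within the range of both hairpin groups. Of the noncoding genes inside the clusters only HOTAIR and HOXA11-AS were among the tested genes, and neither was called. HOTAIR, a noncoding RNA made within HOXC, differed by 0.07 ± 0.11 on the CPSF3-labelled arrays (limma adjusted p 0.780), and HOXA11-AS by 0.10 ± 0.20 on the RBFOX2 hairpin arrays (adjusted p 0.912). Of 19 genes that flank the clusters, NFE2L1, in the wider neighbourhood of HOXB, fell by 0.55 ± 0.11 on the CPSF3-labelled arrays (limma adjusted p 0.0152). It was not called without CPSF3-labelled array 1 or 3 or control array 1. The difference was -0.30 from probe sets above the median (adjusted p 0.183) and -0.33 from those above the upper quartile (adjusted p 0.0788), and the list's median was -0.01. HNRNPA1, near HOXC, differed by -1.14 ± 0.27 on the RBFOX2 hairpin arrays (limma adjusted p 0.190). It measured 8.79, 9.55 and 9.17 there and 10.67, 10.70 and 9.54 on the control arrays, so control array 3 overlapped the hairpin arrays. Copies of this gene elsewhere in the genome make its probes uncertain.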

How the data were processed

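For 9 Affymetrix Human Exon 1.0 ST arrays the authors deposited 1 log2 signal per probe set and array; per the submitters' processing notes they were made with Affymetrix Power Tools and RMA on hg18, with versions not given in the sources used here. Since RMA forces arrays to a common distribution, a change shared by most genes is not seen, and the number of arrays limits precision. Of 1384231 probe sets, 354600 had 1 symbol in the platform annotation, 14898 several and 1014733 none; of 19497 symbols 2950 were updated and 121 kept unmatched through RefSeq, which matched all 36 HOX genes. Gene levels (median of at least 3 probe sets, no signal filter) were fitted for 3 groups in limma 3.58.1 (R 4.3.3, with the data.table package in version 1.17.8) without a block, with Benjamini-Hochberg adjustment over 18589 genes at 0.05. The members, lists and position classes were chosen with earlier results of these data known. Arrays were given in full for HOX genes called, the 2 with the smallest p in each comparison and the top gene of each cluster, and lists by at most 2 called genes at each end, otherwise by the smallest p. Other HOX genes with an unadjusted p under 0.05, and the arrays of HOXD4 and PBX3, were named after their values were seen. The fit was tested on simulated data.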

Additional observations from a re-analysis of the deposited data

Results flagged for a closer look

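The 17 probe sets that the annotation ties to several genes of the HOXC cluster entered no comparison. Of the 10 shared by HOXC6 and HOXC4, 6 had all 3 CPSF3-labelled arrays above all 3 control arrays. This lies outside the main measurement, and no test was made on it. Of all probe sets tied to 1 gene 24.6% stood apart, a share that counts both directions, while the 6 are upward only. The differences ran over 0.08 to 0.92 on the log2 scale. The largest was at a probe set that measured 8.23, 7.63 and 7.98 on the CPSF3-labelled arrays, 7.58, 7.49 and 7.60 on the RBFOX2 hairpin arrays, and 6.80, 7.01 and 7.26 on the control arrays. Of the 5 shared by HOXC5 and HOXC4 none stood apart from control in this way. Of the 2 tied to HOXC4, HOXC5 and HOXC6, 1 did, at 0.32, and the other differed by -0.04. These probe sets lie in 1 locus on the same arrays and are not independent, and which of the genes they read cannot be told apart.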

How the results depend on the processing

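Every HOX gene called in any of the 19 other settings was higher on the hairpin arrays. On the CPSF3-labelled arrays the number called was 5 with a filter at the median of all probe sets (14.3% of those tested, against 14.4% of all genes), 7 at the upper quartile (23.3% against 17.6%), 6 with the mean as gene level (16.7% against 17.5%), 7 with array weights (19.4% against 19.7%) and 1 with only the compared groups. Leaving out 1 array gave 0 to 7 for this group and 0 to 3 for the RBFOX2 hairpin, both highest without control array 3 (19.4% against 15.1% of all genes, and 8.33% against 5.83%). In the 4 fits that called no HOX gene on the CPSF3-labelled arrays 1.37% to 3.68% of all genes were called. Leaving out 1 array also gave a median HOX difference of 0.10 to 0.28 and of 0.041 to 0.19, and of 0.0050 to 0.10 between hairpins. The CPSF3 difference itself ran over -0.27 to 0.028 on leaving out 1 array, and it was above 0 only without control array 3. Nothing states whether a replicate number marks a shared culture or batch. Deviations correlated by -0.13 to 0.25 in 9 same-numbered pairs and by -0.38 to 0.29 in 18 others. With so few arrays this cannot decide whether the numbers pair them. With the replicate block 2 HOX genes were called; over all genes the block gave 1797, 5 and 4 calls in the CPSF3-labelled, RBFOX2 and between-hairpin comparisons, so it moved only the last by over 1.5 times, where the call of CRABP1 ended too. All-gene calls for the CPSF3-labelled arrays were 3245 with the mean as gene level, 3656 with array weights and 254 to 2801 on leaving out 1 array. For the RBFOX2 hairpin they were 29 with the filter at the median, 37 at the upper quartile, 22 with the mean, 1 with only the compared groups, 503 with array weights and 0 to 1083 on leaving out 1 array. Between hairpins they were 67, 65 and 91 for the 2 filters and the mean, 134 with array weights, 33 when the variance followed the level, and 0 to 24 on leaving out 1 array. The causes were not tested. HOXC9 lost its call in 5 settings and HOXA3 in 7, among the list genes CBX6 in 11, PDS5B in 10, PBX3 in 7 and STRA6 in 7, while WAPL and CRABP2 lost it in none of the 19. Dim probe sets limit what can be seen, as in the HOXC9 probe set at 2.82.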
